A study of Mus musculus with 2 samples.

Results

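The miRNAs described here are those encoded within the Hox clusters, namely miR-10a, miR-10b, miR-196a, miR-196b and miR-615, in serum extracellular vesicles (EVs), small membrane-bound particles shed by cells into the circulation. The members were chosen by name, by a rule that uses no measured value, although earlier results of these data were known at that time. All 8 listed mature forms were found among the 1847 miRNAs of each table, and all 8 were above the floor of both libraries, the lowest value in a table, which stands for fewer than 10 counts. They come from 3 families: the 5p and 3p arms of miR-10a and miR-10b, the 5p arms of miR-196a and miR-196b, and both arms of miR-615.

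Small RNA was sequenced from serum EVs of iFIRKO and control male mice, with 1 library for each group. iFIRKO mice carry Adipoq-CreERT2, a tamoxifen-inducible Cre recombinase driven by the adiponectin promoter, and Insr flox/flox alleles, so that the insulin receptor gene is deleted in adipocytes. The labels give the control genotype as WT, whereas in the methods of the study the control mice are Insr flox/flox animals that lack the Cre. Mice of both groups were 7 weeks old, received 100 mg/kg tamoxifen by intraperitoneal injection on 5 consecutive days and were sampled on day 3 after the last dose. Each library was made from pooled serum of several mice, so no spread between animals could be estimated, and the intervals below cover counting error only. No miRNA reads out the deletion of Insr, so the labels could not be checked from the targeted gene. The study describes the miRNAs that it followed up as raised in EVs of iFIRKO mice and most others as reduced, whereas in the deposited tables both go the other way with the labels as given. Whether the tables were exchanged cannot be told from them, and an exchange would turn every direction below, but not the levels, the intervals around them or the size of a difference. Each direction therefore follows the labels only. Fewer EVs from a given cell type and less of a miRNA per EV cannot be told apart in these data.

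Hox genes encode transcription factors that give cells their position along the body axis, and their clusters also hold miRNA genes that are transcribed along with their neighbours. A hairpin precursor yields a 5p and a 3p arm, of which the arm loaded more often into the silencing complex is called the guide and the other the passenger. A guide recognises its target mRNAs mainly through its seed. miR-10 and miR-196 are known to repress Hox mRNAs themselves, and miR-196 can direct cleavage of the Hoxb8 mRNA. Adipose depots keep distinct Hox expression patterns in adult life, and miR-196a is known to promote brown adipocyte features in white fat progenitors through Hoxc8.

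The mature sequences of all 8 members were found in the RefSeq set of mouse miRNAs (GRCm38.p6). The guides are shown first because their identity at the seed groups them, with the seed (bases 2 to 8 from the 5′ end) in capitals.
mmu-miR-10a-5p: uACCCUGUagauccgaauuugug
mmu-miR-10b-5p: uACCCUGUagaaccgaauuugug
mmu-miR-196a-5p: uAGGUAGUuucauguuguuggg
mmu-miR-196b-5p: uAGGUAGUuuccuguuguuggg
mmu-miR-615-3p: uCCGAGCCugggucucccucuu
The scarcer arms of the miR-10 and miR-615 hairpins follow, because the proportions of the arms and of the miR-10 paralogues are compared below.
mmu-miR-10a-3p: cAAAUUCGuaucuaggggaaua
mmu-miR-10b-3p: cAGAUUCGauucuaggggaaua
mmu-miR-615-5p: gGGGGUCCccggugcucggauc

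The miR-10 guides had the same seed, and so did the miR-196 guides. No other mature miRNA of the RefSeq set had either seed. With positions counted from 1 at the 5′ end, miR-10a-5p and miR-10b-5p differed by the single substitution U12A, and miR-196a-5p and miR-196b-5p by A12C. The 3p arms of miR-10a and miR-10b differed at 3 positions (A3G, U9A and A10U), the first of which lies in the seed. How the authors assigned reads that match 2 such near-identical miRNAs is not given in the sources used here, so the division between paralogues is uncertain, and more so for the 5p arms. Bases 2 to 7 of the miR-196 guides, AGGUAG, also occur in let-7a-5p, but at bases 3 to 8, so that the seeds of the families are offset. The miR-99/100 guides, the closest relatives of miR-10, had another seed, shown here for miR-100-5p because its bases 6 to 16 repeat 11 bases of miR-10a-5p from base 7 onwards.
mmu-miR-100-5p: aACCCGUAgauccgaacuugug

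The hairpins lie in all 4 Hox clusters (GENCODE M21, GRCm38, the same assembly as mm10, which the submitters name). Mir10a (chromosome 11, 96317165 to 96317274, plus strand) lies 993 bases from Hoxb4 and outside other annotated genes. Mir10b (chromosome 2, 74726070 to 74726137, plus strand) lies inside introns of Hoxd4 and of Hoxd3. miR-196a-5p is made from 2 hairpins of different clusters: Mir196a-1 (chromosome 11, 96265164 to 96265265, plus strand, between Hoxb13 and Hoxb9) and Mir196a-2 (chromosome 15, 102973350 to 102973434, plus strand, between Hoxc10 and Hoxc9, within an intron of a long Hoxc5 transcript). Mir196b (chromosome 6, 52230081 to 52230165, minus strand) lies within Hoxa9, where 2 of the 3 Hoxa9 transcripts that span it have an exon. Mir615 (chromosome 15, 103014910 to 103015001, plus strand) lies inside an intron of Hoxc5.

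Depths were 3817902 counts (control-labelled library) and 2233498 counts (iFIRKO-labelled library), and values are given as counts and as counts per 1000000 of the depth (CPM). Known miRNAs of other cells differed between the libraries. The 7 miRNAs of the erythroid list include the followed-up miRNAs whose direction goes against the labels. They summed to 28.3% of the control-labelled library and 20.4% of the iFIRKO-labelled library, and all 7 were lower in the latter (ratios 0.409 to 0.760). Most of both sums was miR-16-5p, the most abundant miRNA of each library, and whether it came from erythroid cells was not tested. The sums are therefore not the erythroid share of a library. The 4 liver miRNAs summed to 12.1% and 20.2%, and all 4 were higher (ratios 1.35 to 1.71). Summed levels went from 3.66% to 2.58% for the 2 endothelial miRNAs, both of which were lower (ratios 0.684 and 0.710). The sums were 1.94% and 1.76% for the 5 mesenchymal miRNAs, and 1.07% and 0.983% for the 3 skeletal muscle miRNAs. These lists were mixed, with a ratio over 1 for 2 of the mesenchymal miRNAs (0.726 to 1.39) and 1 of the muscle miRNAs (0.907 to 1.30). Of the platelet and myeloid list, 1 of 3 miRNAs (miR-223-3p) was analysed here, at 2.21% and 1.77%. That difference is of 1 miRNA and does not describe the list. miR-142a-3p, which was about as abundant and differed less between the libraries, was not part of this value. Whether these shares take part in the values below was not tested.

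The 8 members together held 15952 counts (4178 CPM, or 0.418% of the depth) in the control-labelled library and 9263 counts (4147 CPM, 0.415%) in the iFIRKO-labelled library, and the ratio was 0.993 (95% interval 0.967 to 1.02). The summed level was thus indistinguishable between the libraries at this depth on the deposited scale. The miR-10 family made up 91.3% and 89.6% of these counts, the miR-196 guides 7.30% and 7.86%, and miR-615 1.42% and 2.53%. By cluster of origin, HoxB (the miR-10a arms and miR-196a-1-3p) and HoxD (the miR-10b arms) gave most of the counts. The ratio was 0.980 (95% interval 0.948 to 1.01) for HoxB, 0.975 (0.932 to 1.02) for HoxD and 1.07 (0.965 to 1.20) for HoxA (the miR-196b arms). HoxC (the miR-615 arms and miR-196a-2-3p) had 326 and 348 counts and a ratio of 1.82 (1.56 to 2.13). Its sum holds scarce arms only, and scarce miRNAs had higher ratios in general. The median ratio of all miRNAs was 1.44 at mean counts of 100 to 1000 and 2.01 at 10 to 100. These cluster ratios are on the deposited scale, and TMM (trimmed mean of M values) scaling multiplies each by 0.553. miR-196a-5p was left out of this division, since its reads cannot be assigned to a cluster.

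**Figure D1:**
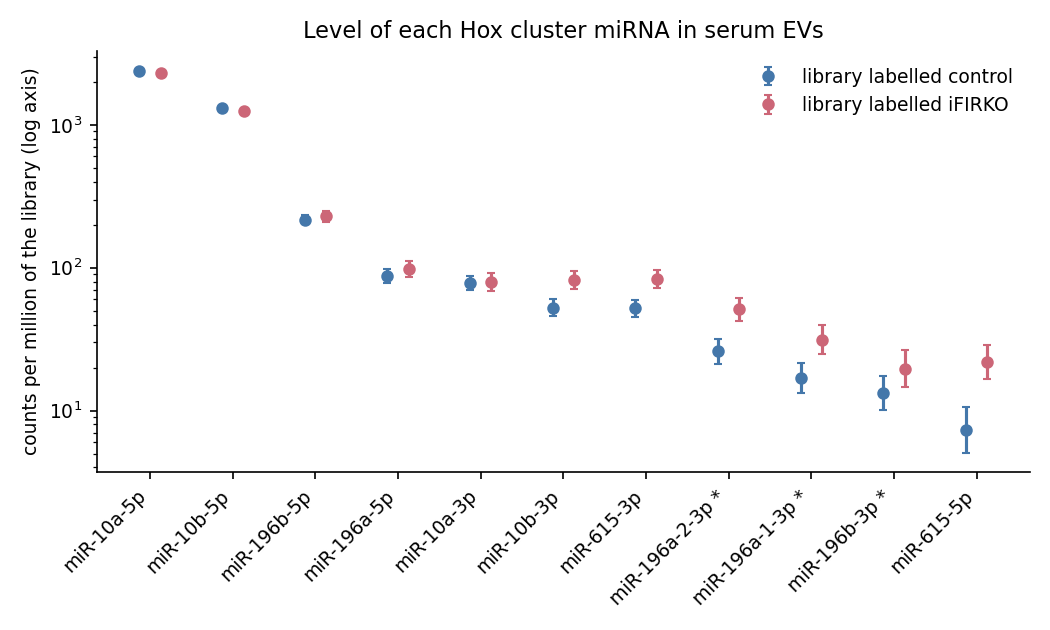
Level of each Hox cluster miRNA in CPM (vertical log axis) in the control-labelled library (blue) and the iFIRKO-labelled library (red). Points are the value of 1 library each, bars are 95% Wilson intervals for counting error, and asterisks mark passenger strands of the miR-196 hairpins, which are not members. The guides miR-10a-5p, miR-10b-5p, miR-196b-5p and miR-196a-5p have neighbouring values. In contrast, miR-10b-3p, both miR-615 arms and the passenger strands miR-196a-1-3p and miR-196a-2-3p are higher in red.

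The miR-10 guides were by far the most abundant members, and their levels were close in the libraries. miR-10a-5p, the guide from the HoxB cluster, had 9057 counts (2372 CPM) in the control-labelled library and 5155 counts (2308 CPM) in the iFIRKO-labelled library, and was the miRNA of rank 48 in both. Its ratio was 0.973, and the 95% interval (0.940 to 1.01) included 1. miR-10b-5p, the guide from the HoxD cluster, which is best known for its part in tumour cell invasion, had 5004 counts (1311 CPM, rank 64) and 2787 counts (1248 CPM, rank 60). Its ratio was 0.952, with a 95% interval (0.909 to 0.997) that lay just below 1. Neither guide approached the 1.5-fold threshold of the study on the deposited scale. Scaling to miR-148a-3p, to the median of ratios or by TMM (trimmed mean of M values) lowered both ratios, to 0.538 and 0.527 with TMM, past the threshold.

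The proportions of the miR-10 guides, which do not depend on the scaling, could not be distinguished between the libraries. miR-10a made up 64.4% (95% Wilson interval 63.6 to 65.2) of the miR-10 5p counts in the control-labelled library and 64.9% (63.9 to 66.0) in the iFIRKO-labelled library. The odds of miR-10a against miR-10b had a ratio of 1.02 between the libraries (95% exact conditional interval 0.964 to 1.08).

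For the passenger strands of the miR-10 hairpins, the proportions differed by more than the counting error. miR-10a-3p had 299 counts (78.3 CPM) and 177 counts (79.2 CPM) in the same order, and the ratio was 1.01 (95% interval 0.835 to 1.22). miR-10b-3p had 201 counts (52.6 CPM) and 182 counts (81.5 CPM), which gives a ratio of 1.55 (1.26 to 1.90). In the control-labelled library miR-10a-3p was thus the more abundant, and in the iFIRKO-labelled library their levels could not be distinguished. The share of miR-10a among the miR-10 3p counts was 59.8% (95% Wilson interval 55.4 to 64.0) and 49.3% (44.2 to 54.5), and the odds of miR-10b-3p against miR-10a-3p were 1.53-fold higher in the iFIRKO-labelled library (95% interval 1.15 to 2.03). Seen within the hairpin, the 3p arm made up 3.86% (3.37 to 4.42) of the miR-10b counts in the control-labelled library and 6.13% (5.32 to 7.05) in the iFIRKO-labelled library, an odds ratio of 1.63 (1.32 to 2.01). For miR-10a the 3p share was 3.20% (2.86 to 3.57) and 3.32% (2.87 to 3.84), an odds ratio of 1.04 (0.856 to 1.26). Over all 610 pairs of arms above the floor in both libraries, the scarcer arm gained share with an interval above 1 in 18.7% and lost share with an interval below 1 in 9.18%. The median odds ratio of the scarcer arm was 1.10. The value of miR-10b exceeded 77.7% of the other pairs and that of miR-10a 46.8%. This background of pairs is not matched for abundance, here or below. Both miR-10 hairpins set a 3p arm of 100 to 1000 mean counts against a 5p arm over 1000. The median ratios of all miRNAs in these classes were 1.44 and 0.952. The part of abundance in the odds ratios was not tested.

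The miR-196 guides were far lower than the miR-10 guides. miR-196b-5p, whose hairpin lies in Hoxa9 and which is known from haematopoietic progenitors, had 830 counts (217 CPM, rank 142) in the control-labelled library and 510 counts (228 CPM, rank 143) in the iFIRKO-labelled library, with a ratio of 1.05 (95% interval 0.939 to 1.17). miR-196a-5p had 334 counts (87.5 CPM) and 218 counts (97.6 CPM), for a ratio of 1.12 (0.936 to 1.33). Both intervals included 1 on the deposited scale, and both ratios were below 1 with miR-148a-3p, the median of ratios or TMM as the scaling. miR-196a made up 28.7% (95% Wilson interval 26.2 to 31.4) and 29.9% (26.7 to 33.4) of the miR-196 5p counts, an odds ratio of 1.06 (0.862 to 1.31). The libraries were therefore not distinguishable in this proportion either.

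The 3 passenger strands of the miR-196 hairpins are not members, but they come from the same hairpins and tell the miR-196a genes apart. miR-196a-1-3p from the HoxB cluster had 65 and 70 counts (17.0 and 31.3 CPM), which is a ratio of 1.84 (95% interval 1.29 to 2.62). miR-196a-2-3p from the HoxC cluster had 99 and 114 counts (25.9 and 51.0 CPM) at a ratio of 1.97 (1.49 to 2.60). miR-196b-3p had 51 and 44 counts (13.4 and 19.7 CPM) at a ratio of 1.47 (0.962 to 2.25). Among all miRNAs of 10 to 100 mean counts the median ratio was 2.01, and miR-196a-1-3p and miR-196b-3p lay below it. miR-196a-2-3p lay above the median of its own class, which was 1.44 for 100 to 1000 mean counts. Of the miR-196a 3p counts, 60.4% (52.7 to 67.5) and 62.0% (54.8 to 68.7) belonged to Mir196a-2, so the balance between the HoxC and HoxB copies was not distinguishable between the libraries. The 3p arms summed to 32.9% (28.9 to 37.2) of all miR-196a counts in the control-labelled library and to 45.8% (41.0 to 50.7) in the iFIRKO-labelled library, an odds ratio of 1.72 (1.30 to 2.27). miR-196a was not among the arm pairs counted above, because its 3p arms come from different hairpins, so its odds ratio has no such background. Its 3p arms, with mean counts of 67.5 and 106.5, were scarcer than its 5p arm, with 276. Scarce miRNAs had higher ratios in general, and the part of abundance in this odds ratio was not tested. For miR-196b the 3p share was 5.79% (4.43 to 7.53) and 7.94% (5.97 to 10.5). Its odds ratio was 1.40 (0.902 to 2.18), which exceeded 70.0% of the other pairs. In both libraries the miR-196a hairpins thus showed a larger 3p share than any of the miR-10a, miR-10b and miR-196b hairpins.

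miR-615, the miRNA within Hoxc5, was the scarcest family and had the largest ratio on the deposited scale. Its more abundant arm, miR-615-3p, had 199 counts (52.1 CPM) in the control-labelled library and 185 counts (82.8 CPM) in the iFIRKO-labelled library, so that the ratio was 1.59 (95% interval 1.29 to 1.95). miR-615-5p had 28 counts (7.33 CPM) and 49 counts (21.9 CPM), and its ratio was 2.99 (1.84 to 4.94). With 28 counts in the control-labelled library the latter is the least precise of the members. The summed miR-615 level was 59.5 CPM and 104.8 CPM, a ratio of 1.76 (1.46 to 2.12) that fell to 0.975 with TMM scaling. The 3p arm held 87.7% (82.8 to 91.3) of the miR-615 counts in the control-labelled library and 79.1% (73.4 to 83.8) in the iFIRKO-labelled library. The odds of the 5p arm were 1.88-fold higher in the latter (95% interval 1.11 to 3.25), which exceeded 85.2% of the other hairpins. Those hairpins are not matched for abundance.

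**Figure D2:**
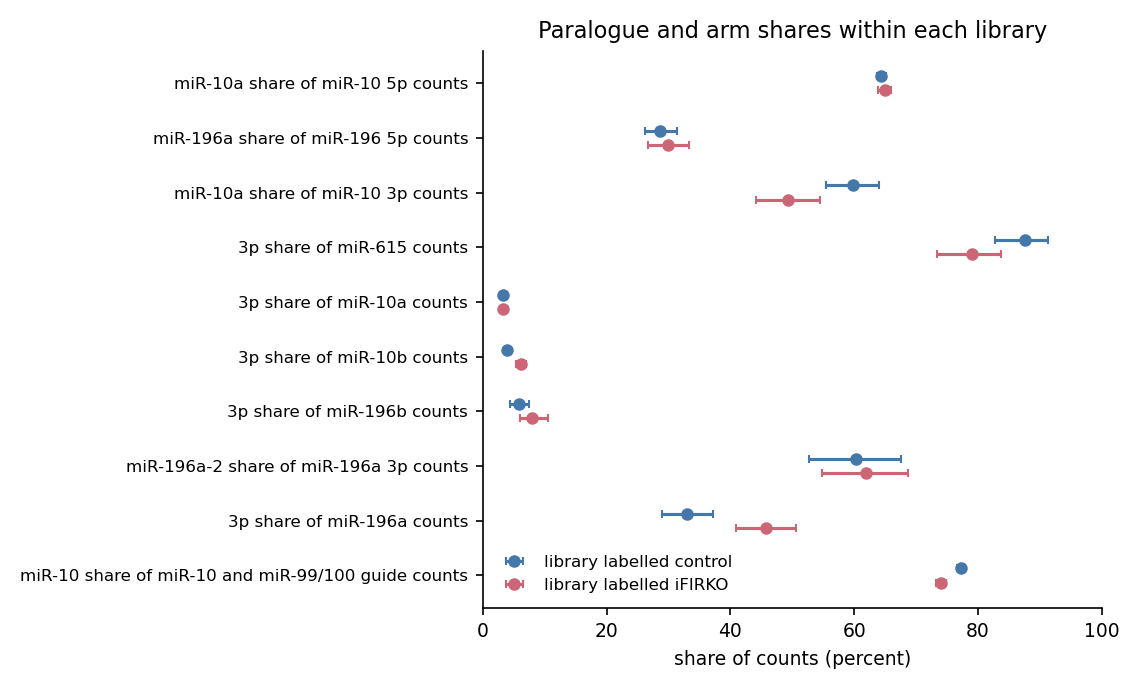
Share of counts in percent (horizontal axis) of the named paralogue or arm within each library, with 95% Wilson intervals, for the control-labelled library (blue) and the iFIRKO-labelled library (red). The 5p paralogue shares coincide (64.4% and 64.9% for miR-10a), whereas the 3p shares of miR-10b and miR-196a are higher in red, and the 3p share of miR-615 and the miR-10a share of the miR-10 3p counts are lower.

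Past the 1.5-fold threshold, 3 of the 8 members were higher in the iFIRKO-labelled library (miR-10b-3p, miR-615-3p and miR-615-5p) and 0 were lower. Among all 1847 miRNAs 66.3% were higher and 3.03% were lower, so the share of the 8 members past 1.5-fold higher was below the background. That background is not matched for abundance. It holds 1350 miRNAs with mean counts of 10 to 100, of which 76.7% were higher, and only 1 member is among them. Beside the median of miRNAs of like mean count, 4 members lay above and 4 below. Exchanged tables would swap higher and lower for the members and the background alike. The 95% counting interval lay above 1 for the same 3 members, below 1 for 1 (miR-10b-5p) and included 1 for the other 4. Among the 1736 miRNAs that exceed the floor of each library it lay above 1 in 62.7% and below 1 in 5.13%. The median log2 ratio was 0.11 for the members and 0.88 for all miRNAs.

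**Figure D3:**
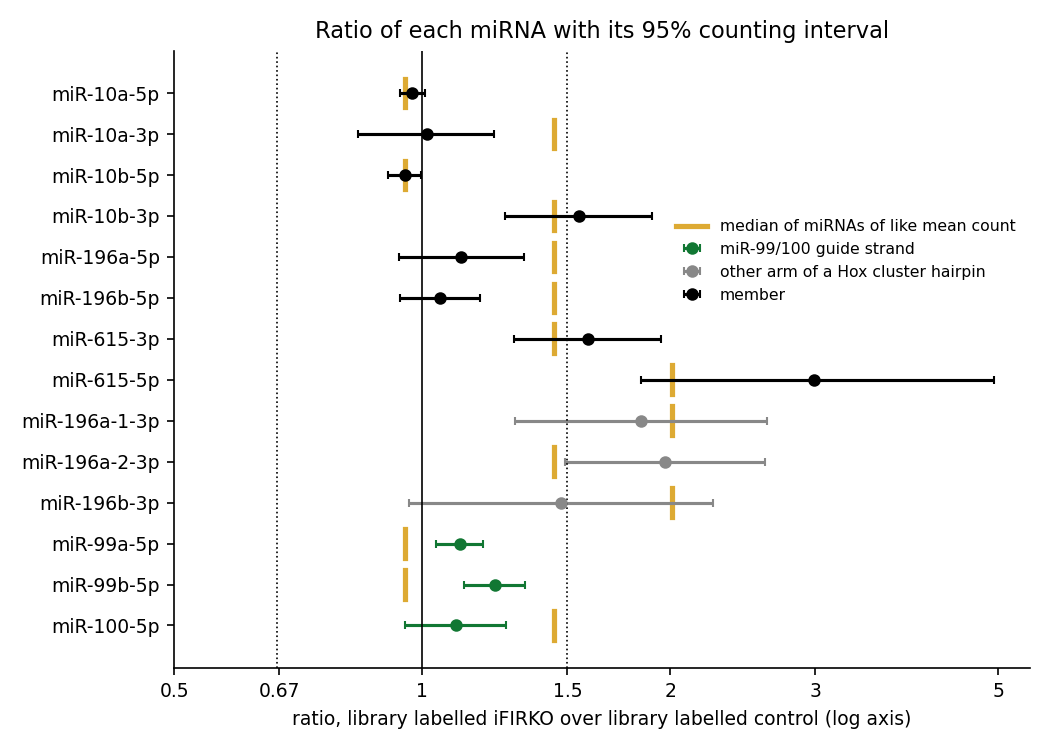
Ratio of the iFIRKO-labelled library to the control-labelled library (horizontal log axis) with 95% counting intervals for the members (black), the other arms of the miR-196 hairpins (grey) and the miR-99/100 guides (green). Yellow bars mark the median ratio of all miRNAs in the same class of mean count, and dotted lines mark 1.5-fold. Each class spans a wide range of counts. miR-10a-5p and miR-10b-5p lie at the median of their class, miR-10a-3p and the miR-196 guides lie to the left of theirs, and miR-615-5p lies to the right.

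Because the ratio fell with abundance across all miRNAs, each member was also set beside the miRNAs of its own class of mean count. The distance from the class median and the place within the class are the same under any scaling, while the shares past 1.5-fold are those of the deposited scale. In the class over 1000 counts (118 miRNAs, median log2 ratio -0.07), 2.54% were past 1.5-fold higher and 9.32% lower, and on this scale neither miR-10 guide was among them. miR-10a-5p differed from the median of the class by 0.03 and miR-10b-5p by -0.00062 on the log2 scale. In the class from 100 to 1000 counts (302 miRNAs, median log2 ratio 0.53), 47.0% were past 1.5-fold higher and 2.32% lower, and 2 of the 5 members in it were higher. miR-615-3p and miR-10b-3p lay above the class median by 0.14 and 0.10. The other 3 lay below it, miR-10a-3p by -0.51, miR-196b-5p by -0.46 and miR-196a-5p by -0.37, and their ratios exceeded those of 22.3%, 24.9% and 30.6% of the class. The upper bounds of their counting intervals (1.22, 1.17 and 1.33) were below the median ratio of the class, 1.44. This class spans a wide range of counts, and miR-196b-5p, with a mean count of 670, lies in its more abundant part. The class median is therefore not that of miRNAs of equal abundance, and distances from such a median were not tested. In the class from 10 to 100 counts (1350 miRNAs, median log2 ratio 1.01), 76.7% were past 1.5-fold higher and 0.444% lower. miR-615-5p, the only member there, lay 0.58 above the class median and exceeded 81.1% of the class. No interval of a member past 1.5-fold excluded the median ratio of its class, which was 1.44 for miR-615-3p and miR-10b-3p and 2.01 for miR-615-5p.

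**Figure D4:**
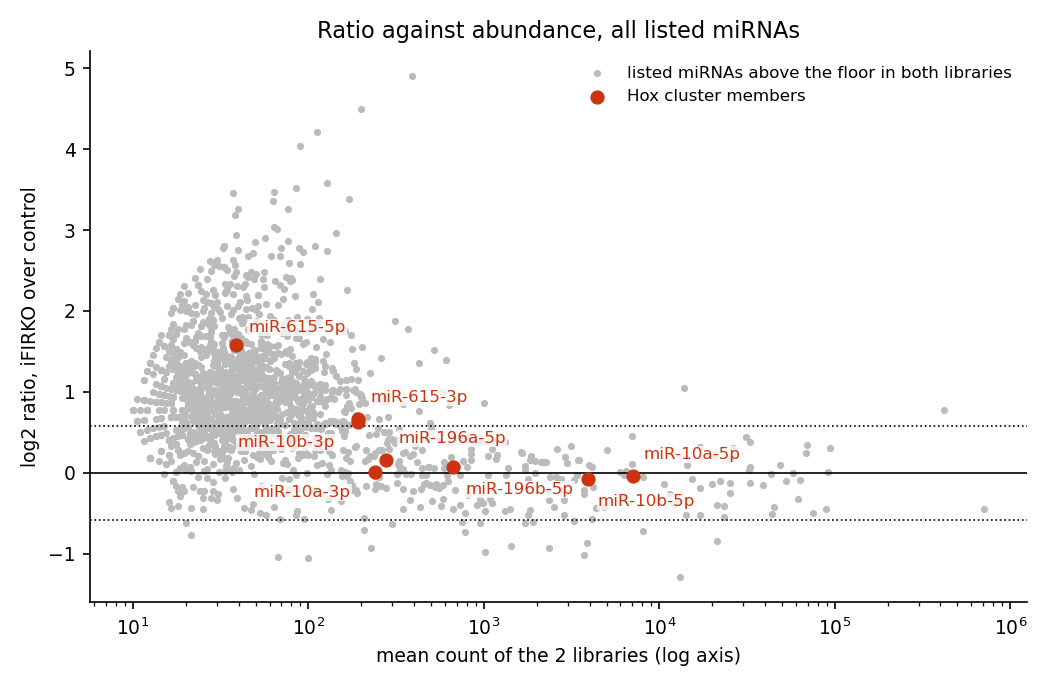
Log2 ratio of the iFIRKO-labelled library to the control-labelled library against the mean count (horizontal log axis) for all miRNAs that exceed the floor of each library (grey), with the 8 members in red and 1.5-fold marked by dotted lines. The cloud falls from a median of 1.01 at 10 to 100 counts to -0.07 over 1000 counts, and miR-10a-3p, miR-196a-5p and miR-196b-5p lie below the median of 0.53 for 100 to 1000 counts.

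The base composition of the members differed as well. The ratio rose with GC content among the 1592 miRNAs (86.2%) with a sequence, within each class of mean count. For mean counts from 100 to 1000 the median log2 ratio was 0.16 for GC contents up to 45.5%, 0.45 between 45.8% and 58.3% and 0.80 from 59.1% upwards. miR-10a-3p (36.4% GC), miR-10b-3p (40.9%), miR-196a-5p (40.9%) and miR-196b-5p (45.5%) fall in the lowest of these groups and miR-615-3p (63.6%) in the highest. miR-615-3p, at a log2 ratio of 0.67, was below the median of its group, and miR-196a-5p, at 0.16, was at the median of its own. miR-10b-3p, at 0.63, was above the median of the low group, and miR-196b-5p, at 0.07, and miR-10a-3p, at 0.02, were below it. miR-615-5p, with 77.3% GC the most GC-rich member, had a log2 ratio of 1.58 against a median of 1.14 for miRNAs of its class with at least 60.0% GC. The part of base composition in the ratios was not tested.

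The order of the levels was the same at the top in both libraries, from miR-10a-5p over miR-10b-5p and miR-196b-5p to miR-196a-5p. The first 3 steps of this order, of 1.81-fold, 6.03-fold and 2.49-fold in the control-labelled library and 1.85-fold, 5.46-fold and 2.34-fold in the iFIRKO-labelled library, were larger than the counting error. In the control-labelled library, miR-196a-5p and miR-10a-3p overlapped in their intervals, as did miR-10b-3p and miR-615-3p. In the iFIRKO-labelled library each of miR-196a-5p, miR-615-3p, miR-10b-3p and miR-10a-3p overlapped with the next, between 97.6 and 79.2 CPM. miR-615-5p was last in both.

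The miR-99/100 guides, which descend from the same ancestral family as miR-10 but lie outside the Hox clusters, were compared with the miR-10 guides. miR-99a-5p had 2358 counts (618 CPM) and 1531 counts (685 CPM), with the ratio at 1.11 (95% interval 1.04 to 1.18). The ratio of miR-99b-5p, with 1289 and 923 counts, was 1.22 (1.12 to 1.33), and that of miR-100-5p, with 506 and 325 counts, was 1.10 (0.952 to 1.26). The miR-10 guides made up 77.2% (76.6 to 77.8) of the guide counts of both groups in the control-labelled library and 74.1% (73.2 to 74.9) in the iFIRKO-labelled library, an odds ratio of 0.844 (0.798 to 0.893). This difference of the libraries exceeded the counting error under any scaling, since both counts are of the same library. The miR-10 guides were the more abundant and had 43.5% GC, against 50.0% to 63.6% for the miR-99/100 guides. Beside the medians of their classes of mean count, miR-99a-5p and miR-99b-5p lay above by 0.22 and 0.36 in log2 ratio. miR-100-5p lay at -0.39, below its own. The part of abundance and base composition in the difference was not tested.

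The miRNAs with the levels most like those of the leading member of each family were found by the distance in log2 CPM over the 2 libraries. For miR-10a-5p they were miR-101b-3p (ratio 1.08), miR-29c-3p (1.01) and miR-221-3p (0.963), at distances of 0.10 to 0.24. For miR-196b-5p they were miR-345-3p (1.15), miR-210-3p (1.06) and miR-200a-3p (0.978), at distances of 0.097 to 0.17. For miR-615-3p the nearest was another member, miR-10b-3p, at a distance of 0.028, followed by miR-6375 (1.64) and miR-2137 (1.65). Likeness over 2 libraries is a description of level and ratio.

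**Figure D5:**
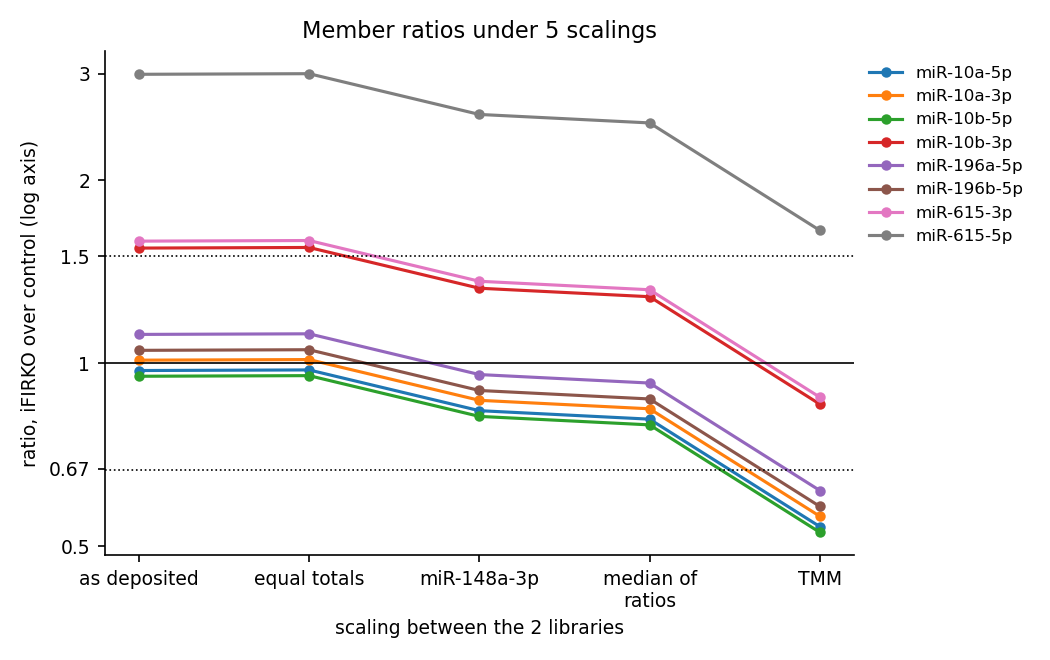
Ratio of the iFIRKO-labelled library to the control-labelled library (vertical log axis) for each member under 5 scalings (horizontal axis). Lines join the values of 1 member, dotted lines mark 1.5-fold, and each line has the same shape because a scaling multiplies every ratio by 1 factor. The value of miR-615-5p stays above 1.5 throughout, and with TMM scaling the other 7 members are below 1. Counting intervals are not drawn.

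The direction of most members depended on the scaling. Relative to the deposited scale, log2 ratios were lowered by 0.22 with miR-148a-3p as the reference miRNA of the study (ratio 1.16), by 0.27 with the median of ratios of miRNAs of at least 100 counts and by 0.85 with TMM. With TMM scaling 5 members were past 1.5-fold lower (both miR-10 guides, both miR-196 guides and miR-10a-3p), when 388 of all miRNAs were higher and 360 were lower. That background is not matched for abundance. miR-10a-5p, at 0.538, exceeded 53.8% of the class over 1000 counts, so these were past 1.5-fold lower as well. miR-196a-5p, at 0.617, exceeded 30.6% of the class from 100 to 1000 counts, with the same consequence. The value of miR-615-5p was over 1.5-fold higher under each scaling, from 2.99 as deposited to 1.65 with TMM. With TMM its counting interval, 1.84 to 4.94 on the deposited scale, also held values below 1.5. The differences of log2 ratios between members, such as those between miR-10b-3p and miR-10a-3p or between the miR-615 and miR-10 families, are the same under each scaling.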

How the data were processed

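Total RNA of serum EVs was made into libraries with the QIAseq miRNA Library Kit and sequenced on a NextSeq500, which the authors then analysed with GeneGlobe (Qiagen). The submitters name the build mm10. The aligner, the miRNA annotation release and the use of molecular identifiers are not given in the sources used here. The authors deposited 1 normalized signal per miRNA and library. Of the values in each library, 100.0% were whole multiples of 1 constant per library, to within 0.25 of a whole count, and whole counts were recovered by dividing by it. The inverse of this constant was taken as the depth. The lowest value, held by 76 miRNAs in the control-labelled library and 35 in the iFIRKO-labelled library, was treated as a floor that stands for fewer than 10 counts, since the next count present was 10.

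Ratios are of CPM, with no pseudocount or filter, and their 95% intervals were converted from exact (Clopper-Pearson) binomial limits on the iFIRKO part of the 2 counts. Levels and shares have Wilson intervals, and odds ratios have exact conditional intervals (SciPy 1.17.1). No test between genotypes and no count model was run, because each group has 1 library. The intervals treat counts as independent molecules. TMM factors came from edgeR 4.0.16 in R 4.3.3. The functions were tested on simulated data. Named miRNAs were the 8 members, the other arms of their hairpins, the miR-99/100 guides, miR-148a-3p and, for the most abundant member of each family, the 3 nearest miRNAs. Members and lists were chosen with earlier results of these data known. The 3p shares of miR-196a and miR-196b, the miR-10 3p paralogue share, the share of Mir196a-2, the comparison with miR-99/100, the classes of mean count, the sums by cluster and the GC groups were added after values were seen. The alternatives were other scalings, filters, a pseudocount, a 2-fold threshold and the floor at 10 counts.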

Additional observations from a re-analysis of the deposited data

How the results depend on the processing

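No paired analysis was possible because there is only 1 library of each genotype, and no library could be left out for the same reason. The filters at a mean count of 10 and 100, equal totals, a pseudocount of 1 CPM and the floor at 10 counts left the member ratios they could be computed for and the family ratios within their counting error. The miR-10 and miR-196 5p paralogue shares and the miR-615 arm share were recomputed with the pseudocount and the floor at 10 counts only, and stayed within theirs. No member is at the floor, so the floor setting does not touch them. The filter at 100 removed miR-615-5p, which left 2 of 7 members past 1.5-fold higher. Of all miRNAs that it kept (302 of 100 to 1000 counts and 118 over 1000), 145 were higher and 18 lower. The scalings moved more, by construction through 1 factor for every miRNA. The number of members past 1.5-fold higher was 1 in place of 3 with miR-148a-3p, the median of ratios or TMM, and also 1 at a 2-fold threshold. Among all 1847 miRNAs the number higher was 1001, 957 and 388 with these scalings in turn, and 794 at the 2-fold threshold. The number of members past 1.5-fold lower was 5 in place of 0 with TMM, beside 360 of all miRNAs, a background not matched for abundance. In the order miR-148a-3p, median of ratios and TMM, the median log2 ratio of the members was -0.11, -0.15 and -0.74, the summed miR-10 ratio was 0.837, 0.810 and 0.539, and the summed miR-196 ratio was 0.918, 0.889 and 0.591. With TMM the ratios of summed miR-615 (0.975), miR-10b-3p (0.856) and miR-615-3p (0.879) turned below 1. Depth limits the scarce arms most, since miR-615-5p rests on 28 and 49 counts.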
